A study of Homo sapiens with 16 samples.

Results

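The genes described here are the 10 that encode the enzymes of de novo purine and pyrimidine nucleotide synthesis: PPAT, GART, PFAS, PAICS, ADSL, ATIC, IMPDH2, CAD, DHODH and UMPS. They were taken by symbol from the deposited table of 17738 genes, and all 10 were listed, passed the filter on low values and were tested. The table holds RNA sequencing of H1, an established wild-type human embryonic stem cell line, in 16 libraries that form 8 groups of 2. H1 cells were kept in E8 medium and then spent 24 h in E7, which is E8 from which TGFb has been left out, so every group shares the E7 base with its insulin and FGF2. The groups are E7 alone, E7+TGFb (1.74 ng/mL), E7+ActivinA (100 ng/mL) and E7+NODAL (100 ng/mL), each without and with 2-deoxyglucose (2DG, 3 mM). 2DG is a glucose analog that is phosphorylated in the cell but blocks glycolysis, and TGFb, Activin A and NODAL are ligands of the SMAD2 and SMAD3 pathway. The labels describe a single line and do not say whether replicates come from different cultures, and the p-values speak only for the spread among these libraries.

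De novo synthesis builds the purine ring step by step on ribose phosphate and builds the pyrimidine ring first and attaches it to ribose phosphate afterwards. Both routes draw on glucose for the ribose, on glutamine and aspartate for nitrogen, and the purine route on one-carbon units carried by folate. Rapidly dividing cells such as pluripotent stem cells use these routes to supply DNA and RNA synthesis, and the transcription factor MYC and the kinase mTORC1 are known to raise their output.

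The purine route starts with PPAT, the amidotransferase of the committed step, and runs through GART, PFAS, PAICS and ADSL to ATIC, which closes the ring and yields IMP. IMPDH2 turns IMP toward guanine nucleotides. In the pyrimidine route CAD makes carbamoyl phosphate and dihydroorotate, DHODH in the inner mitochondrial membrane oxidises it to orotate, and UMPS makes UMP. PPAT (chr4:56393362-56435615, minus strand) and PAICS (chr4:56435741-56464579, plus strand) lie head to head on hg38 in GENCODE 29, and their RefSeq starts are 137 bases apart. The stretch between these starts is shown because both genes were called lower with 2DG in E7 and with NODAL. This was not particular to the pair, since GART on chromosome 21 was called lower in the same comparisons. With Activin A PPAT was called lower and PAICS was not. It is given on the plus strand with no capitals, since neither motif searched was found in it (RefSeq, GRCh38.p14, chr4:56435616-56435751).
PPAT and PAICS, between the starts: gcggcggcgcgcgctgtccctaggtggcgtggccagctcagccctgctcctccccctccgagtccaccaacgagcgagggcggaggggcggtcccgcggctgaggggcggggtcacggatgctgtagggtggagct

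Windows of 300 bases, 250 before and 50 after each RefSeq start, were available for 8 of the 10 genes and not for ADSL or IMPDH2. CACGTG, the E-box letters that MYC and MAX are known to bind, was searched on both strands (the word reads the same on each) and lay in windows of 4 of these genes, PPAT, PAICS, ATIC and DHODH. It lay in 7.26% of all 35116 windows, which is a share of windows and not of genes. GART and PAICS have more than 1 window, so the count of genes and this share are not on one scale. PPAT and PAICS share a single copy, 40 bases after the PAICS start and 182 bases before the PPAT start. ATIC has 2 copies, and DHODH has 1. TGATGNAA, the letters of the composite site of ATF4, was searched on both strands and lay in the windows of 0 of the 8 genes and in 3.62% of all windows. A match describes the letters only. The sites are printed on the plus strand with CACGTG in capitals, at chr4:56435783-56435801 for PAICS, chr2:215312004-215312027 and chr2:215312079-215312102 for ATIC, and chr16:72008576-72008599 for DHODH.
PAICS: tatttgctgCACGTGgaaa
ATIC, before the start: ccggcgggcCACGTGataagcccg
ATIC, after the start: ctacctgcgCACGTGgtgccgccg
DHODH: gctactgcgCACGTGcacccaacc

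CAD (chr2:27217390-27243943) and PFAS (chr17:8247618-8270491) were the members that rose with 2DG. The 150 bases before their RefSeq starts are shown for comparison with the stretch above, on the plus strand that both genes use, at chr2:27217219-27217368 and chr17:8249139-8249288. Neither gene's window held either motif. Bases more than 250 before or 50 after the start were not searched, so a site beyond the window would be missed.
CAD: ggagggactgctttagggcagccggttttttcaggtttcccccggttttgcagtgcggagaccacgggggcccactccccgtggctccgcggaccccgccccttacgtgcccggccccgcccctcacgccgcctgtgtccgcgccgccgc
PFAS: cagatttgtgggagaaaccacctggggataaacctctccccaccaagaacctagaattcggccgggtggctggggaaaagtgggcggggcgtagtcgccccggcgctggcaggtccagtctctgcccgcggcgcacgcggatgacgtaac

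Values below are normalised read counts, that is reads per gene divided by a size factor for each library. Recovered reads were 14600479 to 17630329 per library, and the 10 genes together held 0.219 to 0.256% of them. All 8 pluripotency markers examined were listed, with POU5F1 averaging 40637 normalised reads and the list summing to 130462 to 170295 per library. By limma 3 of the 8 were lower with 2DG in E7 (POU5F1 -0.46, NANOG -0.47, L1TD1 -0.55), where 14.8% of all genes were. Without 2DG 4 were lower with Activin A, where 4.74% of all genes were, and 4 with NODAL, where 10.9% were. Both comparisons included SOX2 (-0.35 and -0.25) and LIN28A (-0.51 and -0.40). Of the neuroectoderm markers 3 of 5 were listed, with sums of 6283 to 10883. Of the trophoblast markers 3 of 5 were listed, with sums of 57.2 to 156. Among these KRT7 was lower without 2DG with Activin A (-1.50) and NODAL (-0.79). GATA3 had positive values in the same comparisons (0.69 and 0.19) that were not called, and TFAP2A was not tested. Summed levels were 4521 to 5810.0 for the 5 of 8 stromal markers listed, with COL3A1, DCN and LUM not listed. Of the mesendoderm and endoderm markers 4 of 6 were listed, with SOX17 and GATA6 not listed. They summed to 170 to 197 in E7 and 52.2 to 60.7 in E7+2DG, and to 179 to 204 in E7+TGFb and 51.1 to 68.6 in E7+TGFb+2DG. Sums were 514 to 545 in E7+NODAL and 103 to 120 in E7+NODAL+2DG. They were 1508 to 1660 in E7+ActivinA and 880.1 to 1415 in E7+ActivinA+2DG. The level thus differed with 2DG as well as with the ligand. The part of these markers in the results was not tested. In such bulk libraries fewer cells of a type and less RNA per cell cannot be told apart.

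Replicates of a group differed by more than counting error in all groups, most in E7+ActivinA, where the variance between the libraries was 57.3 times that of counting (chi-square per degree of freedom), against 15.8 in E7+ActivinA+2DG, 10.8 in E7 and 1.60 to 5.61 in the other groups. The replicate difference also followed transcript length across genes, with Spearman's rho = 0.577 in E7+ActivinA and -0.441 in E7 (replicate 2 less replicate 1; genes are not independent replicates). The transcripts of CAD, PFAS and UMPS, of 7265, 5371 and 6738 bases, are the longest of the 10. From replicate 1 to 2 of E7, CAD went from 2052 to 1511 and PFAS from 2136 to 1683. UMPS went from 1548 to 1613, against the trend. In E7+ActivinA CAD rose from 1524 to 2560, PFAS from 1693 to 2324 and UMPS from 1247 to 1389.

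Per kilobase of transcript, and averaged over the 16 libraries, PAICS was the most abundant of the 10 at 4693 normalised reads, followed by IMPDH2 at 3708. ATIC (1509) and GART (1129) came next, then PPAT (623), PFAS (430.2), CAD (366) and UMPS (203). DHODH (105) and ADSL (94.97) were the lowest. The levels thus spread widely along both routes, with the enzymes of adjacent steps PAICS and ADSL at the top and the bottom. The value of ADSL is uncertain, because AL022238.4, a protein-coding gene on the same strand that the table does not list, overlaps 1336 bases of its exons. GART shares 244 exonic bases with SON, PPAT 121 with AC068620.2 and IMPDH2 75 with AC137630.3, all on the opposite strand, and the strand setting of the counting is not stated. PAICS has 7 named pseudogenes and PPAT 2, and how reads shared with them were assigned is not stated either.

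**Figure D1:**
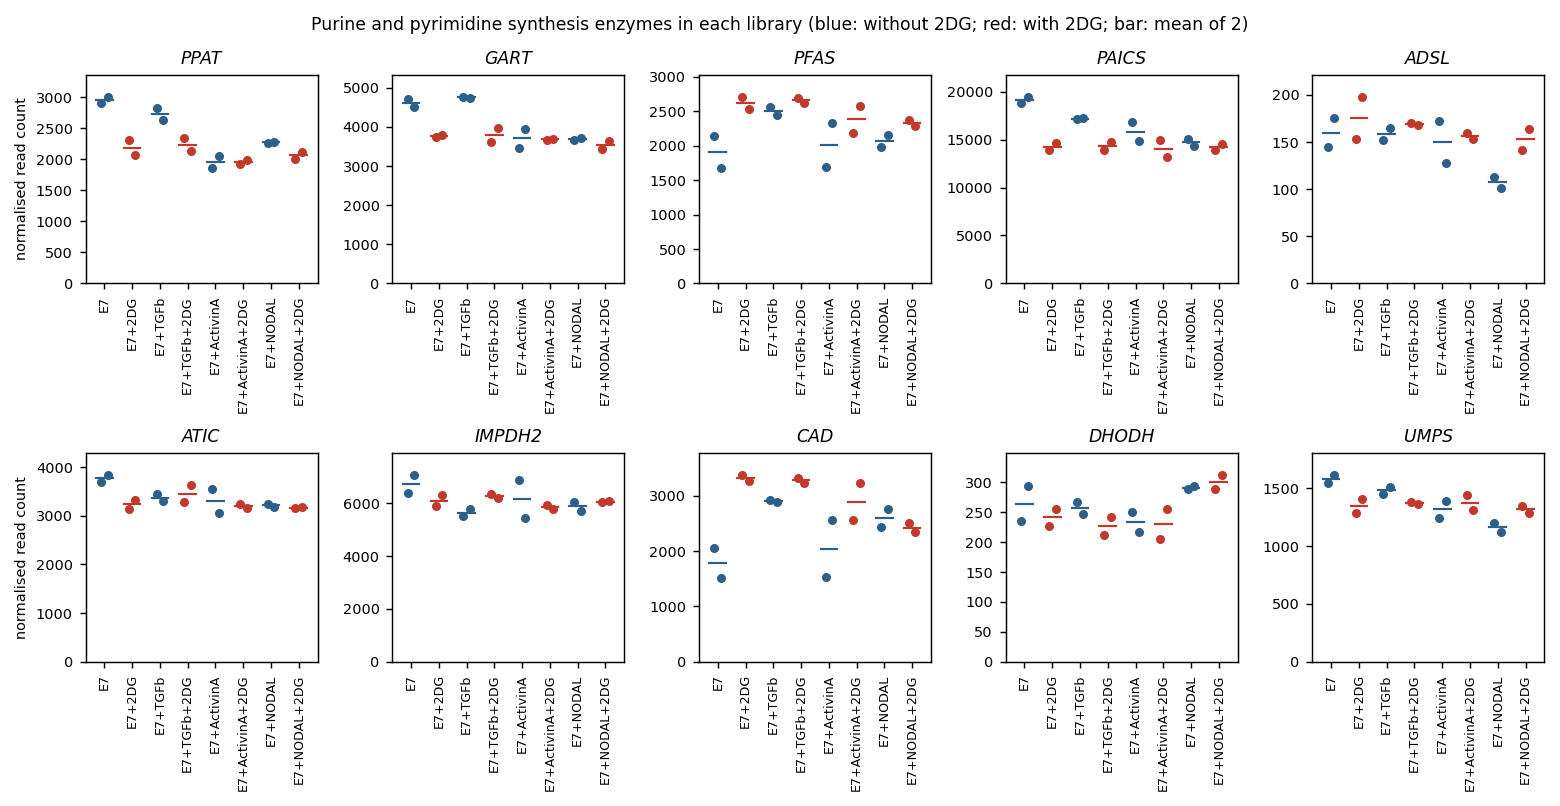
Normalised read count (vertical axis, from 0) of each of the 10 enzymes in every library of the 8 groups (horizontal axis). Each point is a library, each bar the mean of 2, blue without and red with 2DG. PPAT, GART and PAICS are highest in E7 and E7+TGFb without 2DG, CAD is lowest in E7 replicate 2 (1511) and E7+ActivinA replicate 1 (1524), and ADSL is lowest in the E7+NODAL libraries.

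PPAT, the enzyme of the committed purine step, had 2911 and 3002 normalised reads in the replicates of E7 and 2825 and 2632 in E7+TGFb. Its E7+NODAL libraries had 2260 and 2284 and those of E7+ActivinA 1862 and 2047. With 2DG the values were 2303 and 2064 in E7, 2341 and 2130.0 in E7+TGFb, 2009 and 2119 in E7+NODAL and 1919 and 1982 in E7+ActivinA. The 4 libraries of E7 and E7+TGFb without 2DG thus lay above the other 12, whose groups overlapped with their neighbours in the order of means.

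GART, which catalyses several early purine steps, had a like pattern. It had 4707 and 4498 in E7 and 4768 and 4739 in E7+TGFb, and between 3427 and 3965 in the other 12 libraries. PAICS, which acts after PFAS and makes the substrate of ADSL, had 18798 and 19449 in E7 and 17141 and 17228 in E7+TGFb. The other 12 libraries of PAICS ranged from 13162 to 16797, the highest being E7+ActivinA replicate 1, and the groups below E7+TGFb overlapped with their neighbours in the order.

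CAD, the multifunctional enzyme that opens the pyrimidine route, was ordered otherwise. It had 2052 and 1511 in E7 and 1524 and 2560.2 in E7+ActivinA, the lowest groups and the ones with the widest replicate difference relative to the mean. Its values were 2439 and 2763 in E7+NODAL and 2933 and 2892 in E7+TGFb. With 2DG they were 3373 and 3268 in E7, 3324 and 3241 in E7+TGFb, 2563 and 3224 in E7+ActivinA and 2501 and 2345 in E7+NODAL. E7 alone did not overlap with the 4 libraries of E7+2DG and E7+TGFb+2DG, whereas E7+NODAL overlapped with E7+NODAL+2DG.

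PFAS, the amidotransferase of the middle of the purine route, was ordered much as CAD was. It had 2136 and 1683 in E7, 1693 and 2324 in E7+ActivinA, 1978 and 2151 in E7+NODAL and 2567 and 2446 in E7+TGFb. With 2DG it had 2709 and 2540.3 in E7, 2700 and 2623 in E7+TGFb, 2189 and 2577 in E7+ActivinA and 2369 and 2285 in E7+NODAL. The lowest libraries were again E7 replicate 2 and E7+ActivinA replicate 1.

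UMPS, which completes UMP, had 1548 and 1613 in E7, 1452 and 1513 in E7+TGFb and 1247 and 1389 in E7+ActivinA. Its lowest libraries were those of E7+NODAL, with 1202 and 1125, and they did not overlap with any other group. The 8 libraries with 2DG lay between 1289.5 and 1439. ADSL, the lyase that acts at the middle and the end of the purine route, also had its lowest libraries in E7+NODAL, with 113 and 102, against 128 to 198 in the other 14.

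Of the remaining members, ATIC ranged from 3056 to 3834, IMPDH2 from 5441 to 7065 and DHODH from 205 to 312, each with its highest over lowest library between 1.25 and 1.52. E7 had the highest group mean of both ATIC and IMPDH2. For ATIC its libraries (3702 and 3834) lay above the other 14, whereas for IMPDH2, the rate-limiting step toward GTP, they (6398 and 7065) overlapped with E7+ActivinA replicate 1 at 6879. The lowest group mean of IMPDH2 was that of E7+TGFb (5532 and 5773), which overlapped with E7+ActivinA and with E7+NODAL. The neighbouring groups of DHODH all overlapped.

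2DG in E7 compared cells with and without 3 mM 2DG when no ligand was added. PAICS, PPAT and GART fell, CAD and PFAS rose, and the other members did not pass the test. That is 2 of 10 higher, where 14.6% of all 16714 tested genes were called higher, and 3 of 10 lower, where 14.8% were called lower, by limma with Benjamini-Hochberg adjustment at 0.05. The members' median log2 fold change was -0.18, beside -0.00 for all genes tested.

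PPAT went from 2956 ± 64.7 in E7 to 2183 ± 169 normalised reads in E7+2DG (SD, n = 2), a limma log2 fold change of -0.44 (SE 0.09, adjusted p = 0.0037). PAICS went from 19123 ± 460.2 to 14260 ± 537 (log2 -0.42, SE 0.09, adjusted p = 0.0052) and GART from 4602 ± 147 to 3771 ± 39.0 (log2 -0.29, SE 0.09, adjusted p = 0.023). The libraries of E7 and E7+2DG did not overlap for 8 of the 10 members, these 3 among them, but nor did they for 68.9% of all tested genes. The PPAT call held whichever 1 of the 16 libraries was left out. Leaving out E7 replicate 2 ended that of PAICS (adjusted p = 0.053), and that of GART was lost without any of the 4 libraries compared (adjusted p = 0.078 to 0.11).

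CAD went from 1781 ± 382 to 3321 ± 74.6 (SD, n = 2; limma log2 0.91, SE 0.20, adjusted p = 0.0046), which was the largest change among the 10. PFAS went from 1909 ± 321 to 2625 ± 119 (log2 0.47, SE 0.14, adjusted p = 0.025). Both were lowest in E7 replicate 2, and without it CAD had 0.69 (adjusted p = 0.068) and PFAS 0.30 (adjusted p = 0.25). The PFAS call was also lost without either E7+2DG replicate (adjusted p = 0.14 and 0.070).

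Transcript length moved with this comparison. Over all genes the log2 fold change followed length with Spearman's rho = 0.345, from a median of -0.28 in the shortest of 10 equal bins of transcripts to 0.41 in the longest. With that trend removed from each library, CAD had 0.60 (adjusted p = 0.00031), PFAS 0.27 (adjusted p = 0.017), PPAT -0.50, PAICS -0.46 and GART -0.34, so the same 5 were called in the same directions. UMPS, a long transcript that went from 1580.4 ± 45.6 to 1347 ± 80.9, had -0.23 as deposited (adjusted p = 0.070) and -0.51 with the trend removed (adjusted p = 0.0039). Between the E7 replicates UMPS did not follow length, so its value with the trend removed is uncertain. ATIC had -0.22 (adjusted p = 0.080), IMPDH2 -0.14, DHODH -0.12 and ADSL 0.13, and none of these was called in either fit. When either replicate of E7+ActivinA was left out, libraries that are not part of the comparison but share its error, UMPS (adjusted p = 0.026 each) and ATIC (adjusted p = 0.019 each) passed the test.

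**Figure D2:**
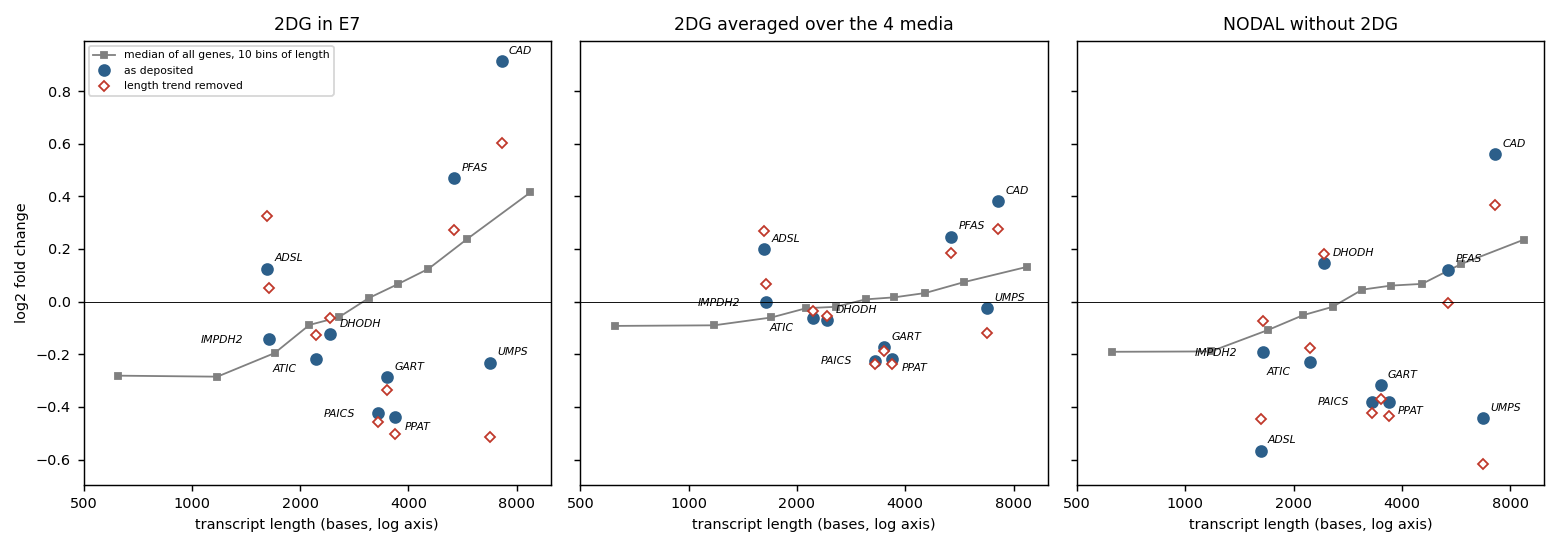
Log2 fold change (vertical axis) against transcript length in bases (horizontal log axis) for 3 comparisons. Blue circles are the 10 enzymes as deposited, red diamonds the same with the length trend removed, and grey squares the median of all genes in each of 10 bins of length. The grey line rises from -0.28 to 0.41 for 2DG in E7, and CAD moves from 0.91 to 0.60 and UMPS from -0.23 to -0.51.

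Whether the response to 2DG in a medium with a ligand differed from that in E7 is answered only by the interaction terms given further on. In E7+TGFb GART fell, from 4753 ± 20.7 to 3789 ± 249 (SD, n = 2; limma log2 -0.33, SE 0.09, adjusted p = 0.028), the 1 member of 10 called lower, where 4.37% of all genes were, and 0 were higher, where 5.47% were. This call was lost without any of the 4 libraries compared (adjusted p = 0.075 to 0.23). PPAT had -0.29 (adjusted p = 0.059) and PAICS -0.26 (adjusted p = 0.097), and CAD, already at 2912 ± 28.7 in E7+TGFb, had 0.17 (adjusted p = 0.65). Leaving out either replicate of E7+ActivinA brought PPAT (adjusted p = 0.015 each) and PAICS (adjusted p = 0.021 each) past the threshold. Over all genes this comparison had rho = -0.003 with transcript length.

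In E7+ActivinA limma called 0 of the 10 members, where 1.7% of all genes were called. At an unadjusted p under 0.05 it had 1 member, CAD, and edgeR and DESeq2 called 0. CAD went from 2042 ± 733 to 2894 ± 467 (SD, n = 2; log2 0.54, 95% interval 0.12 to 0.96, adjusted p = 0.16). The comparison turned on E7+ActivinA replicate 2. Without it CAD had 0.92 (adjusted p = 0.00034), PFAS 0.49 (adjusted p = 0.0058), PAICS -0.26 (adjusted p = 0.036) and IMPDH2 -0.23 (adjusted p = 0.047). PPAT and GART had -0.00 and -0.01 with all libraries, and their groups overlapped.

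In E7+NODAL limma again called 0 of the 10, where 5.88% of all genes were called. 1 member, ADSL, was at an unadjusted p under 0.05, and edgeR and DESeq2 called 0. ADSL went from 107 ± 7.96 to 153 ± 16.1 (SD, n = 2; log2 0.50, 95% interval 0.12 to 0.89, adjusted p = 0.11), and its adjusted p was 0.041 or 0.040 when replicate 1 or 2 of E7+ActivinA was left out. UMPS had 0.18 (adjusted p = 0.27), and CAD, whose libraries overlapped, had -0.10 (adjusted p = 0.83).

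Averaged over the 4 media, which weights each medium equally and uses all 16 libraries, the same 5 members as in E7 were called. By limma 2 of 10 were higher, where 19.2% of all genes were, and 3 of 10 lower, where 19.4% were. The members' median was -0.04 and that of all genes -0.00. PPAT had a mean log2 response of -0.22 (SE 0.04, adjusted p = 0.0020), PAICS -0.22 (SE 0.05, adjusted p = 0.0020) and GART -0.17 (SE 0.04, adjusted p = 0.0062). CAD had 0.38 (SE 0.10, adjusted p = 0.0074) and PFAS 0.25 (SE 0.07, adjusted p = 0.014). These 5 calls held when any 1 of the 16 libraries was left out and with the length trend removed, where CAD had 0.28 and PFAS 0.18. ADSL had 0.20 (adjusted p = 0.089). It was called with the trend removed (0.27, adjusted p = 0.0063) and when replicate 1 of E7+ActivinA was left out (0.25, adjusted p = 0.022). IMPDH2 had -0.00 with a 95% interval of -0.11 to 0.11, UMPS -0.03 with -0.12 to 0.07, ATIC -0.06 with -0.16 to 0.03, and DHODH -0.07 with -0.23 to 0.09.

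**Figure D3:**
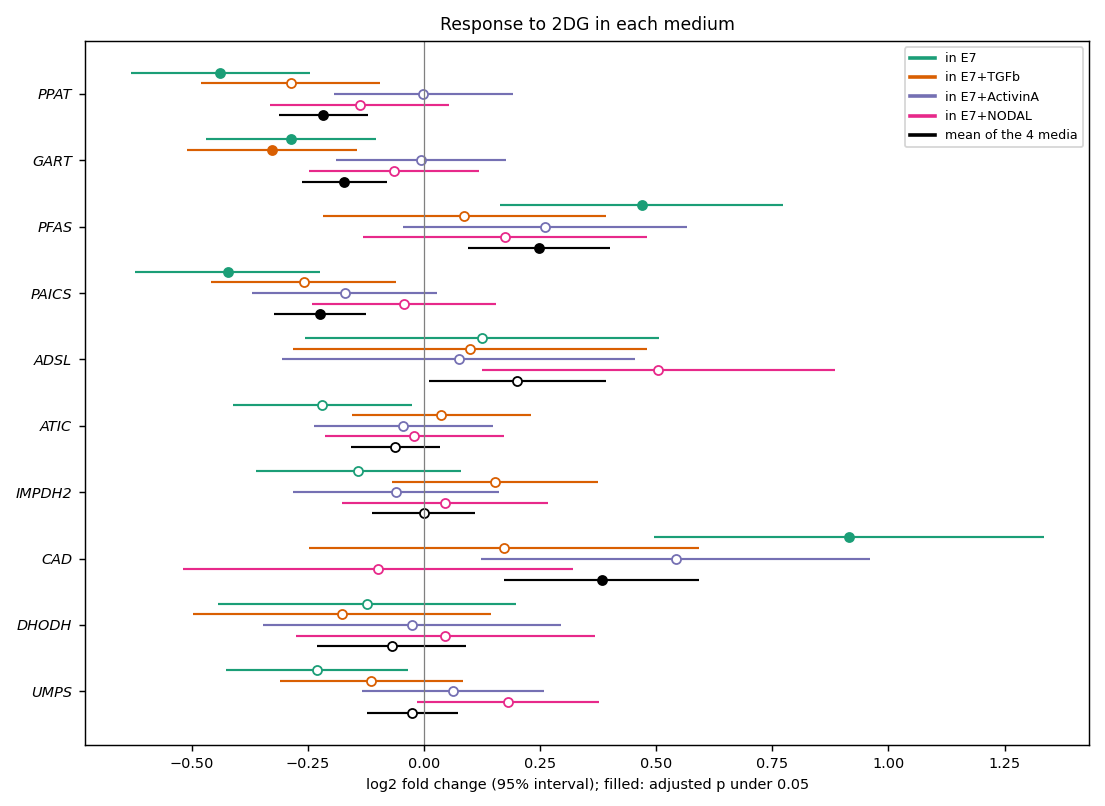
Log2 fold change with 2DG (horizontal axis, with 95% intervals of the limma fit) for each enzyme (vertical axis) in the 4 media and as their mean. Filled points passed an adjusted p of 0.05. In E7 (green) PPAT, GART and PAICS lie below 0 and PFAS and CAD above it, from -0.44 to 0.91, and the mean of the media (black) calls the same 5.

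Activin A and NODAL without 2DG were compared with the same E7 libraries, as was 2DG in E7, so these comparisons share their controls and their calls are not independent of each other. TGFb without 2DG changed no member at the threshold. Limma called 0 of the 10 and 0% of all genes, with 3771 genes and 3 members (CAD, PFAS and IMPDH2) at an unadjusted p under 0.05. EdgeR called 0 members and DESeq2 called 1, CAD. CAD went from 1781 ± 382 to 2912 ± 28.7 (SD, n = 2; log2 0.73, 95% interval 0.31 to 1.15, adjusted p = 0.15), PFAS from 1909 ± 321 to 2506 ± 85.1 (0.40, adjusted p = 0.16) and IMPDH2 from 6732 ± 471 to 5653 ± 171 (-0.25, adjusted p = 0.18). All 3 were called when either replicate of E7+ActivinA was left out, with adjusted p of 0.0012 and 0.0011 for CAD, 0.011 each for PFAS and 0.019 each for IMPDH2. Of the 14 comparisons this one had the largest rho with length, 0.468.

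With Activin A, PPAT and GART fell. By limma 2 of 10 members were lower, where 4.74% of all genes were, and 0 were higher, where 5.28% were. PPAT went from 2956 ± 64.7 to 1955 ± 131 (SD, n = 2; log2 -0.60, SE 0.09, adjusted p = 0.00075), its largest change in any comparison, and the call held whichever 1 of the 16 libraries was left out. GART went from 4602 ± 147 to 3710 ± 344 (log2 -0.31, adjusted p = 0.033). That call was lost in 9 of the leave-one-out fits (adjusted p = 0.052 to 0.15), those that dropped any library of E7, E7+TGFb, E7+NODAL or E7+NODAL+2DG, or replicate 1 of E7+ActivinA. PAICS had -0.27 (adjusted p = 0.080), UMPS -0.26 (adjusted p = 0.088) and ATIC -0.19 (adjusted p = 0.21). The other members turned on which E7+ActivinA library was used. Without replicate 1 PAICS (-0.36, adjusted p = 0.0067), ATIC (-0.30, adjusted p = 0.015) and IMPDH2 (-0.31, adjusted p = 0.013) were called lower and CAD (0.54, adjusted p = 0.011) higher, and without replicate 2 UMPS was called lower (-0.34, adjusted p = 0.024). PAICS was also called without E7+ActivinA+2DG replicate 1 or 2 (adjusted p = 0.048 and 0.047).

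NODAL gave the most calls among the ligands. By limma 5 of 10 members were lower, where 10.9% of all genes were, and 0 were higher, where 10.6% were, and the members' median was -0.27 beside 0.01 for all genes. UMPS went from 1580.4 ± 45.6 to 1164 ± 54.4 (SD, n = 2; log2 -0.44, SE 0.09, adjusted p = 0.0054) and ADSL from 160.1 ± 21.9 to 107 ± 7.96 (log2 -0.57, SE 0.18, adjusted p = 0.036). PAICS went from 19123 ± 460.2 to 14696 ± 563 (log2 -0.38, adjusted p = 0.012), PPAT from 2956 ± 64.7 to 2272 ± 17.5 (log2 -0.38, adjusted p = 0.011) and GART from 4602 ± 147 to 3690 ± 22.2 (log2 -0.32, adjusted p = 0.019). The libraries of the groups did not overlap for 8 of the 10 members, nor for 66.3% of all tested genes. The share of reads from mitochondrial genes was 6.62 and 6.69% in E7+NODAL against 5.66 and 5.53% in E7. In E7+ActivinA it was 6.64% in replicate 1 and 5.56% in replicate 2. The part of this share in the results was not tested. CAD had 0.56 (adjusted p = 0.056), ATIC -0.23 (adjusted p = 0.082), IMPDH2 -0.19, DHODH 0.15 and PFAS 0.12.

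The 5 calls with NODAL rest on few libraries. Without E7 replicate 2 none of the 5 was called (adjusted p = 0.059 to 0.26), nor without E7+NODAL replicate 2 (adjusted p = 0.068 to 0.20). Without E7+NODAL replicate 1 the calls of PPAT, GART and ADSL were lost, without E7 replicate 1 that of GART, and that of ADSL was also lost when any library of E7+TGFb or of E7+TGFb+2DG was dropped (adjusted p = 0.052 each). The log2 fold change followed transcript length with rho = 0.252. With that trend removed the 5 were called again (UMPS -0.62, PPAT -0.44, PAICS -0.42, ADSL -0.45, GART -0.37), and CAD was called higher at 0.37 (adjusted p = 0.0097). The value of UMPS in that fit is uncertain, since UMPS did not follow length between the E7 replicates. When either replicate of E7+ActivinA was left out, ATIC (adjusted p = 0.018 each), IMPDH2 (adjusted p = 0.042 and 0.041) and CAD (adjusted p = 0.0017 and 0.0016) passed the test, and CAD also passed it without E7 replicate 1 (0.78, adjusted p = 0.034).

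With 2DG present, no ligand moved any member past the threshold. Limma called 0 of the 10 for TGFb, where 0% of all genes were called, for Activin A, where 7.52% were, and for NODAL, where 0.634% were. At an unadjusted p under 0.05 there were 0, 0 and 1 members, and 273 of all genes for TGFb, and edgeR and DESeq2 called 0 in each comparison. The 1 was CAD with NODAL, from 3321 ± 74.6 in E7+2DG to 2423 ± 110 in E7+NODAL+2DG (SD, n = 2; log2 -0.46, 95% interval -0.87 to -0.04, adjusted p = 0.27), and leaving out either replicate of E7+ActivinA brought it past the threshold (adjusted p = 0.023 each). PPAT had 0.03, -0.16 and -0.08 with TGFb, Activin A and NODAL, PAICS 0.01, -0.02 and -0.00, and UMPS 0.03, 0.03 and -0.03. For PAICS the 95% intervals ran from -0.22 to 0.21 over the 3 ligands.

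**Figure D4:**
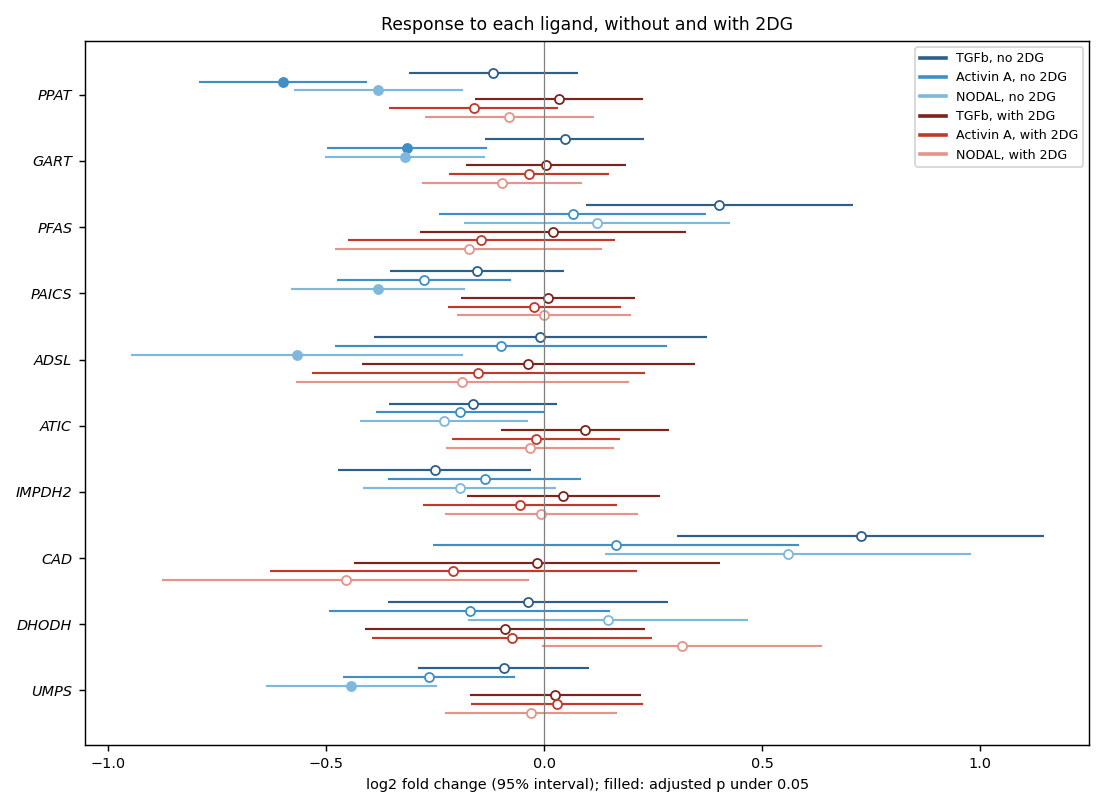
Log2 fold change with each ligand (horizontal axis, 95% intervals of the limma fit) for each enzyme (vertical axis), without 2DG in blue and with 2DG in red. Filled points passed an adjusted p of 0.05. PPAT and GART are called lower with Activin A and NODAL without 2DG, down to -0.60, and no red point is filled.

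Whether 2DG acted differently with a ligand than in E7 was tested by the interaction, which subtracts the response in E7 from that in the medium with the ligand. Limma called 0 of the 10 members for each ligand, where 0% of all genes were called for TGFb, 0.0419% for Activin A and 1.87% for NODAL. At an unadjusted p under 0.05 there were 1, 3 and 4 members, and 2023 of all genes for TGFb. EdgeR called 0 in each comparison and DESeq2 called 0, 0 and 3. The nearest to the threshold were those of NODAL. CAD had -1.01 (SE 0.28, adjusted p = 0.058), UMPS 0.41 (SE 0.13, adjusted p = 0.075) and PAICS 0.38 (SE 0.13, adjusted p = 0.095). PPAT had 0.30 with NODAL (adjusted p = 0.16) and 0.44 with Activin A (adjusted p = 0.31), and CAD had -0.74 with TGFb (adjusted p = 0.41).

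The NODAL interaction also followed transcript length (rho = -0.433). With the length trend removed 4 members passed the test, CAD at -0.62 (adjusted p = 0.018), UMPS at 0.78 (adjusted p = 0.017), PAICS at 0.43 (adjusted p = 0.036) and PPAT at 0.39 (adjusted p = 0.036). In that fit the response of CAD to 2DG was therefore lower with NODAL than in E7, and those of UMPS, PAICS and PPAT higher. The value of UMPS there has the same uncertainty, since its E7 replicates did not follow length. When replicate 1 or 2 of E7+ActivinA was left out of the fit as deposited, CAD (adjusted p = 0.00080 and 0.00077), UMPS (0.013 each) and PAICS (0.015 and 0.014) were called for NODAL, and CAD was called for TGFb (0.021 and 0.020). CAD was also called for NODAL without E7 replicate 1 (-1.24, adjusted p = 0.044) and for Activin A without E7+ActivinA replicate 1 (-0.75, adjusted p = 0.019).

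Across the 16 libraries, on log2 values, the members fell into no single pattern. Of the 45 pairs, 14 had Pearson's r over 0.5 and 20 had r below 0. The closest pair was PFAS and CAD (r = 0.94), the members with the longest transcripts apart from UMPS, and next were PPAT and GART (0.86), PAICS and ATIC (0.78) and GART and PAICS (0.77). The head-to-head genes PPAT and PAICS had 0.72. PAICS and CAD had -0.68 and IMPDH2 and CAD -0.64. All pairs share libraries, size factors and the length trend, and the libraries fall into groups, so these are descriptions. Of 10707 other genes with a mean of at least 100, those most like the mean of the 10 members were MCU (0.97), UTP4 (0.95), WDR43 (0.93), MCL1 (0.92) and SPG20 (0.91).

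Counts for the rest of nucleotide metabolism differed between the media, but so did those over all genes. With 2DG limma called 14.6% of all genes higher and 14.8% lower in E7, and 5.47% and 4.37% in E7+TGFb. In either direction it called 1.7% in E7+ActivinA and 5.88% in E7+NODAL. For the mean of the media it called 19.2% higher and 19.4% lower. The counts of 1 higher among the breakdown and ribose genes lie near the share in E7. No interaction is given for these lists. Of 15 other genes of the de novo routes, from PRPP synthetases to nucleotide kinases, 0 were higher and 9 lower in E7 and the same counts held for the mean of the media (median log2 -0.38 and -0.17, all genes -0.00 in both). In E7 NME1, a nucleoside diphosphate kinase, had -0.82 (limma adjusted p = 0.0091), CMPK1, a pyrimidine nucleotide kinase, -0.74 (adjusted p = 0.00060) and GUK1, the guanylate kinase, -0.65 (adjusted p = 0.034). With 2DG 0 were higher and 2 lower in E7+TGFb, and 0 were called by limma in E7+ActivinA or in E7+NODAL. In E7+NODAL NME1 had 0.15, CMPK1 -0.25 and GUK1 -0.19. List values here and below are as deposited, with the length trend not removed. In E7 that trend ran from a median of -0.28 in the shortest transcripts to 0.41 in the longest. Its part in the list results was not tested. Of 12 salvage genes 0 were higher and 5 lower in E7, led by HPRT1, which rescues hypoxanthine and guanine (-0.92), the deoxyguanosine kinase DGUOK (-0.83) and the thymidine kinase TK1 (-0.62). In the mean of the media the uridine phosphorylase UPP1 was higher (0.75) and 5 salvage genes were lower. In E7+NODAL 2 salvage genes were higher, UPP1 (0.81) and the purine nucleoside phosphorylase PNP (0.50), and 0 lower, while in E7+TGFb 1 was higher and 1 lower. Of 9 genes of deoxynucleotide supply 6 were lower and 0 higher in E7 (median -0.64), among them the dUTPase DUT (-0.87) and the ribonucleotide reductase subunit RRM1 (-0.78). Of 6 tested breakdown genes 1 was higher and 2 lower in E7, the xanthine dehydrogenase XDH (1.89), the guanine deaminase GDA (-2.05) and the pyrimidine nucleotidase NT5C3A (-0.48), and the adenosine deaminase ADA was lower in the mean of the media (-0.54).

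Of 10 genes of formate and folate supply 5 were higher and 1 lower with 2DG, both in E7 and in the mean of the media. Of all genes 14.6% were higher and 14.8% lower in E7, and 19.2% and 19.4% in that mean. In E7 the mitochondrial enzymes ALDH1L2 (2.90), SHMT2 (1.33) and MTHFD2 (1.11) rose, while the cytosolic MTHFD1 fell (-0.29, adjusted p = 0.039). Of 7 ribose supply genes 1 was higher and 2 lower in E7, the transketolase TKT (0.34) and the pentose phosphate isomerase RPIA (-0.79) and epimerase RPE (-0.28). Of 9 genes of aspartate and glutamine supply 2 were higher and 2 lower in E7, with the asparagine synthetase ASNS (1.72) and the glutamine carrier SLC1A5 (1.07) higher, and in the mean of the media the aspartate and glutamate carrier SLC1A3 was lower (-0.28).

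**Figure D5:**
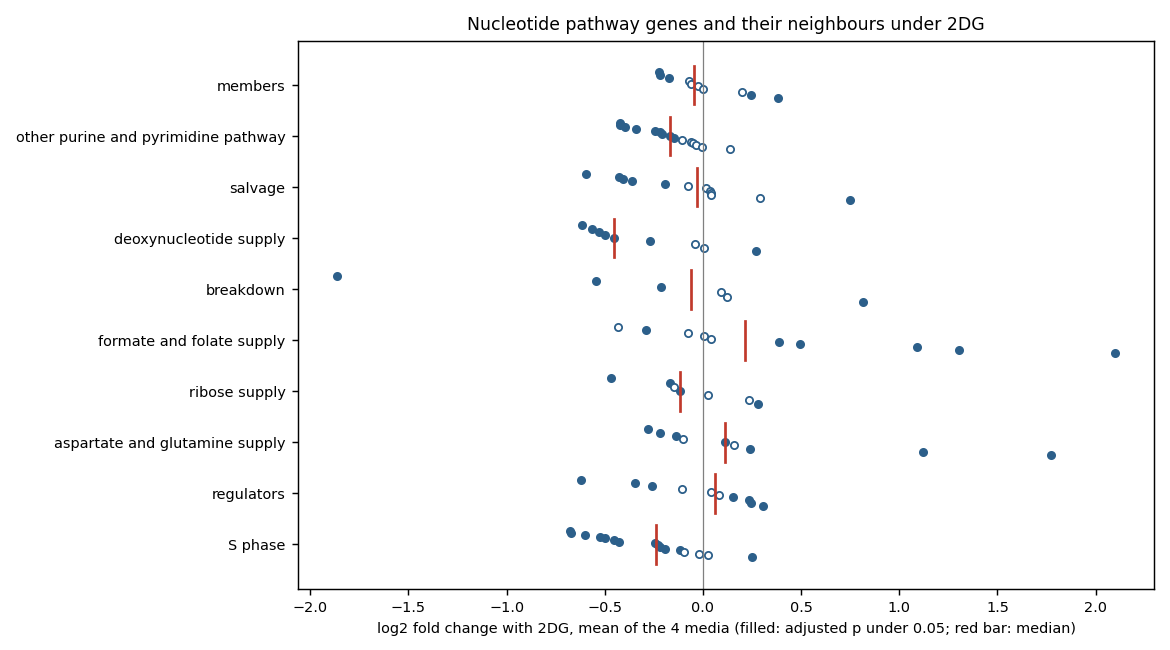
Log2 fold change with 2DG averaged over the 4 media (horizontal axis) for the 10 enzymes and for 9 lists of related genes (vertical axis). Each point is a gene, filled where the adjusted p was under 0.05, and the red bar is the list's median. The medians run from -0.45 for deoxynucleotide supply to 0.21 for formate and folate supply, with -0.04 for the 10 enzymes.

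Among 10 regulators linked to these enzymes, E2F1 alone was called by limma with 2DG in E7 (-0.40, adjusted p = 0.046). Of all genes 14.6% were called higher and 14.8% lower there. The other log2 fold changes in E7 were 0.14 for MYC, 0.17 for MYCN, -0.03 for MAX, -0.43 for the MYC antagonist MXD4, 0.02 for MLX, 0.07 for MLXIP, 0.08 for ATF4, -0.16 for the S6 kinase RPS6KB1 and 0.07 for NRF1. In the mean of the media 4 were higher, ATF4 (0.31), MYC (0.25), MYCN (0.24) and MAX (0.15), and 3 lower, MXD4 (-0.62), E2F1 (-0.35) and MLXIP (-0.26), by limma. Of all genes 19.2% were higher and 19.4% lower in that mean. The values of MLX (0.04), NRF1 (0.08) and RPS6KB1 (-0.11) did not pass. With Activin A without 2DG, where PPAT had its largest fall, MYCN fell, with -0.81 (adjusted p = 0.00032), MXD4 (1.60) and MLXIP (0.78) rose, and MYC had -0.43 (adjusted p = 0.054). With NODAL ATF4 (-0.59, adjusted p = 0.0054) and MAX (-0.46) fell, MXD4 (0.98) and MLXIP (0.77) rose, and MYCN had -0.28 (adjusted p = 0.081). Without 2DG limma called 5.28% of all genes higher and 4.74% lower with Activin A, and 10.6% and 10.9% with NODAL.

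S phase genes were lower in some of the same comparisons as the purine enzymes. Of 16 such genes 9 were lower and 0 higher with 2DG in E7, where 14.8% and 14.6% of all genes were. They were led by the replication helicase subunits GINS2 (-0.97) and MCM6 (-0.83) and the polymerase clamp PCNA (-0.92). In the mean of the media 12 were lower and 1 higher, where 19.4% and 19.2% of all genes were, and the cyclin CCNE2 had -0.67. With NODAL without 2DG 7 of the 16 were lower and 0 higher, where 10.9% and 10.6% of all genes were. With Activin A without 2DG 0 were called by limma, where 4.74% of all genes were lower and 5.28% higher. Their part in the results for the enzymes was not tested. Of 3 tested histone genes taken as lacking poly(A) tails, a measure of RNA selection, 0 were called with 2DG in E7 (median -0.77) or with NODAL (median -0.78). The 4 listed had few reads, so the lack of calls says little. They summed to 169 to 180 in E7, 91.1 to 105 in E7+2DG, 106 to 130 in E7+NODAL and 106 to 229 in E7+ActivinA.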

How the data were processed

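RNA sequencing of 16 H1 libraries gave 1 table of 17738 genes. Its values are a signal deposited by the authors: reads per gene divided by a size factor per library. Per the submitters' processing notes, Trimmomatic 0.36, STAR, featureCounts 1.5.3, DESeq2 1.26.0 and hg38 were used, with no role stated. The annotation and the strand setting are not given in the sources used here. All values (100%) were whole multiples of 1 read within a tolerance of 1e-06, so whole reads were recovered, and the divisors equalled median-of-ratios factors. Every listed gene has at least 1 read in every library. The depth of 14600479 to 17630329 reads limits ADSL and DHODH most.

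Limma 3.58.1 (R 4.3.3), with a trend of the variance on the mean, was fitted to log2 of the value plus 1. The 16714 genes that reached 10 in 2 or more libraries entered 1 model of 8 group means and 14 contrasts. P-values are two-sided, adjusted by Benjamini-Hochberg within a contrast, and called under 0.05. Fold changes are on that log2 scale. The test was tested on simulated counts with the same dispersion in every gene and library. These counts lacked the uneven replicate spread of the real groups and its trend with transcript length. That check therefore does not cover the effect of these on the calls. Transcript lengths are those of the GENCODE 29 transcript with the longest coding sequence, matched for 97.6% of the genes. The length trend was removed by lowess (span 0.3). Other alternatives were TMM factors, pseudocounts of 0.5 and 8, no filter, the replicate number as a block, the count tests of edgeR 4.0.16 and of DESeq2 1.42.0 run on recovered reads, a fit without the 4 Activin A libraries, and each library left out in turn, where a group left with 1 library was assumed to vary like the others. The 10 members are named in every comparison, each list by up to 3 called genes with the largest changes with 2DG in E7 and in the mean of the media, and every regulator. MTHFD1, and the regulators' values with ligands, were chosen for the text after their values were seen. Some genes that met this rule are not reported here. Members and lists were chosen with earlier results of these data known.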

Additional observations from a re-analysis of the deposited data

How the results depend on the processing

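TMM factors, pseudocounts of 0.5 and 8, no filter, edgeR and the replicate block each kept all 140 member results (10 members in 14 comparisons) in direction and on their side of the threshold. With the replicate block 5 members were called for 2DG in E7, 5 for the mean of the media and 5 for NODAL without 2DG, as in the fit without it. Replicate numbers did not pair the libraries: 3 of 28 pairs of groups had a correlation of replicate differences over 0.1 (range -0.49 to 0.28). No member result changed direction with a call in any setting run.

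The number of members called went from 1 to 3 with the length trend removed or without the 4 Activin A libraries, and to 2 with DESeq2, for 2DG in E7+TGFb. It went from 0 to 1 for 2DG in E7+NODAL in both of the first settings, from 0 to 1 (DESeq2) and 3 (without Activin A libraries) for TGFb without 2DG, from 5 to 8 for NODAL and from 0 to 1 for NODAL with 2DG without the Activin A libraries. For the interaction of TGFb it went from 0 to 3 without those libraries, and for that of NODAL from 0 to 3 with DESeq2, 4 with the length trend removed and 4 without the Activin A libraries. Smaller changes were from 5 to 6 for 2DG in E7 and for the mean of the media with the length trend removed. With that or with DESeq2 they were from 5 to 6 for NODAL and from 2 to 3 for Activin A without 2DG. Without the Activin A libraries 19 member results in all passed the threshold that the main fit had not called, and 0 lost a call. Not all of these 19 are itemised here. The cause was not tested. The fit without the Activin A libraries has fewer libraries. It also leaves out the groups whose replicates differed most, at 57.3 (E7+ActivinA) and 15.8 (E7+ActivinA+2DG) times the variance of counting.

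With each library left out in turn, the members called ranged from 1 to 7 for 2DG in E7, 0 to 3 in E7+TGFb, 0 to 4 in E7+ActivinA, 0 to 1 in E7+NODAL and 5 to 6 for the mean of the media. They ranged from 0 to 3 for TGFb, 1 to 5 for Activin A and 0 to 8 for NODAL without 2DG, 0 to 0 for TGFb and Activin A and 0 to 1 for NODAL with 2DG, and 0 to 1, 0 to 1 and 0 to 3 for the interactions of TGFb, Activin A and NODAL. With 2 libraries a group, 1 line and values listed only for genes read in every library, counting error was largest for ADSL and DHODH, the members with the fewest reads.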
